A study of Mus musculus with 18 samples.

Results

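The Zfp genes are mouse genes named for the zinc finger proteins they encode, and 285 of the 20207 genes in the processed files had a name of this form (Zfp followed by digits, with Zfp36, which encodes an mRNA-decay factor of another finger type, left out). Of these, the 174 described here were chosen by their level in unstressed cells, a mean RPKM of at least 1 over the 3 control libraries (RPKM is the read count scaled by gene length and by library depth). The mRNA-seq data came from 18 libraries of NIH3T3 cells, an established mouse fibroblast line. All cells, controls included, stably expressed DD-sfGFP, a destabilizing domain fused to a green fluorescent protein, and had been sorted as a population for high GFP. The study kept Shield-1, the ligand that stabilizes this domain, on the heated and tunicamycin-treated cells throughout. It was not withdrawn from the reference cells either. The 6 groups held 3 libraries each: unstressed control cells at 0 min, cells under heat stress (HS) for 45 or 135 min, and cells exposed to tunicamycin (Tun) for 45, 135 or 405 min. Tunicamycin blocks N-linked glycosylation, so that proteins misfold in the endoplasmic reticulum. HS at 405 min was not analysed here.

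Most Zfp genes encode C2H2 proteins, in which each finger is a short loop held by a zinc ion between a pair of cysteines and a pair of histidines, and arrays of fingers read DNA sequence. Many also carry a KRAB domain, which recruits Trim28 (KAP1) and with it histone methyltransferases, HP1 proteins and DNA methylation machinery, and silences retroelements and imprinted regions. Others act as activators, co-repressors or chromatin cofactors, and a smaller number work on RNA, on ribosomes or at the mitotic spindle. Zinc finger mRNAs are known as a class in which short half-lives are common, but these files hold levels and no measurement of decay.

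The 174 genes ranged from 1.01 to 91.0 RPKM in control cells, with a median of 4.42 RPKM, below the median of 10.9 RPKM of the 9907 genes tested at 1 RPKM or more. Only 38 genes reached 10 RPKM and 36 lay between 1 and 2 RPKM. The 3 genes just inside the minimum were Zfp109 (1.01 RPKM), Zfp157 (1.02 RPKM) and Zfp770 (1.06 RPKM), and those just outside it were Zfp82 (0.995 RPKM), Zfp748 (0.937 RPKM) and Zfp60 (0.937 RPKM). The other 111 Zfp genes lay below the minimum. Counting a motif of the C2H2 finger in translated gene models gave a median of 9 fingers per protein and a maximum of 36. A KRAB-A motif was found in 37 of the 173 genes with a matched gene model, and these genes were lower in control cells (median 2.42 RPKM) than the 136 without it (5.78 RPKM). The motif search missed some KRAB proteins: Zfp445, listed below as a KRAB repressor, had no match. The 136 are thus genes without a match and may include KRAB proteins, here and in each later comparison by this motif. The genes were clustered: 47 of the 174 (27.0%) lay on chromosome 7, which holds 7.79% of the genes tested, and 87 had another of the 174 within 500 kb. In 3′ UTRs of the gene models, the ATTTA pentamer, a core of AU-rich decay elements, occurred at a median of 1.22 per kb in the Zfp genes and 1.30 per kb in the genes tested at 1 RPKM or more, and 59.5% against 62.6% had at least 1 copy, so that the Zfp genes did not stand above other genes by this count.

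The highest control level belonged to Zfp207 (91.0 ± 16.1 RPKM, SD, n = 3), a spindle and kinetochore protein also known as BuGZ. Zfp598, the ubiquitin ligase that marks collided ribosomes, followed with 62.6 ± 34.2 RPKM. Its CPM (read counts scaled to library size by edgeR's TMM factors over all 18 libraries) was 409 in control replicate 1 and 154 and 169 in the other two, so that its spread came from 1 library. Zfp414 had 32.9 ± 2.61 RPKM, Zfp106, an RNA-binding protein needed by motor neurons and muscle, 26.6 ± 1.13 RPKM, and Zfp384, a transcription factor of the nuclear matrix, 25 ± 1.46 RPKM. By RPKM, Zfp598 lay below Zfp207 and above Zfp414 within each control library, whereas the order of Zfp106 and Zfp384 was not the same in every control.

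Libraries differed within groups in a way that the groups do not explain. Depth was 33415592 to 66478268 reads on genes per library, and 3 reads made up 0.0451 to 0.0898 CPM, far below the levels named here. The deviation of a library from the mean of all libraries ran with the GC content of the transcripts, with a Spearman correlation across genes (which are not independent replicates) between -0.597 and 0.590. HS 45 replicates 1 and 2 (0.590 and 0.564), HS 135 replicate 2 (0.571) and Tun 135 replicate 1 (0.523) lay at one end and HS 45 replicate 3 (-0.449) far from its own group. Control replicate 1 (0.052) stood apart from control replicates 2 and 3 (-0.540 and -0.538). The Zfp genes had a median GC content of 50.5%, against 50.6% over all genes, but those with a KRAB-A motif had 46.2% and those without it 51.5%. What set the libraries apart was not tested, and no label names a batch. All 8 fibroblast markers examined were above 1 RPKM in all libraries, and none of the epithelial, endothelial or neuronal markers reached 1 RPKM in any library. Of 4 immune markers only Cd68, a lysosomal protein, did.

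Relative to the control mean, the median log2 CPM of the 174 Zfp genes was higher in all 6 HS libraries and all 6 Tun libraries of 45 and 135 min, while the median of all 12731 genes tested stayed between -0.03 and 0.02. The median Zfp gene lay 0.26, 0.14 and 0.11 above the control mean in the 3 libraries of HS 45. It lay 0.34, 0.41 and 0.22 above it at HS 135 and 0.30, 0.28 and 0.32 at Tun 45. The shift was smaller at Tun 135, at 0.18, 0.17 and 0.15, and lay near 0 at Tun 405, at 0.09, 0.03 and -0.04 on the log2 scale. At the ends of the GC scale, the shift was 0.26 in HS 45 replicate 1, whose correlation with GC content was 0.590, and 0.30 in Tun 45 replicate 1, where that correlation was -0.597. The part of GC content in the shift was not tested. Because the members were chosen by their control level, the comparisons with control share the libraries that chose them. All tested Zfp genes, whatever their level, gave a median log2 fold change of -0.11 at HS 45 (260 genes), against 0.15 for the 174, and 0.19 at HS 135 and 0.32 at Tun 45, against 0.20 and 0.29.

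**Figure D1:**
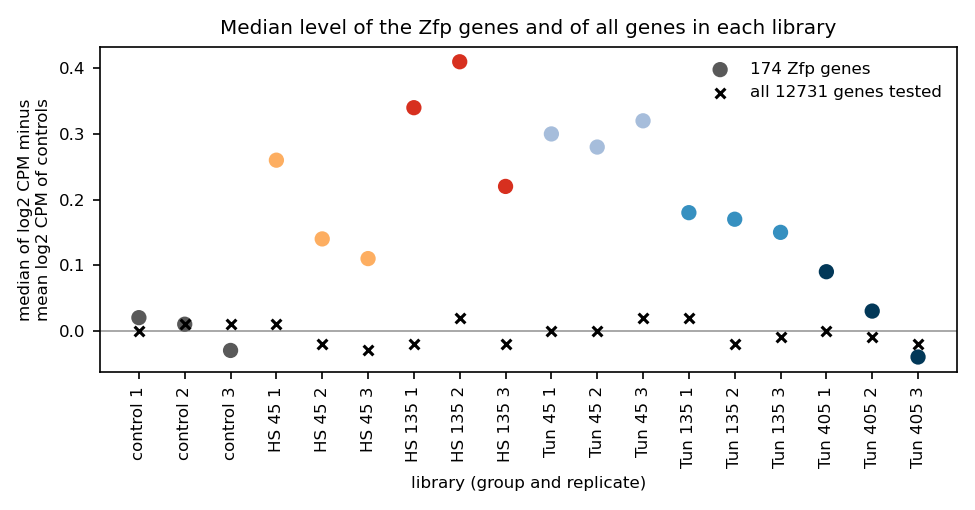
Median over genes of log2 CPM minus the mean log2 CPM of the 3 controls (y axis, log2 units) in each of the 18 libraries (x axis, group and replicate). Filled points, coloured by group, are the 174 expressed Zfp genes and crosses are all 12731 genes tested; the Zfp median lies above the crosses in every HS library and every Tun library of 45 and 135 min and near them at Tun 405.

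**Figure D2:**
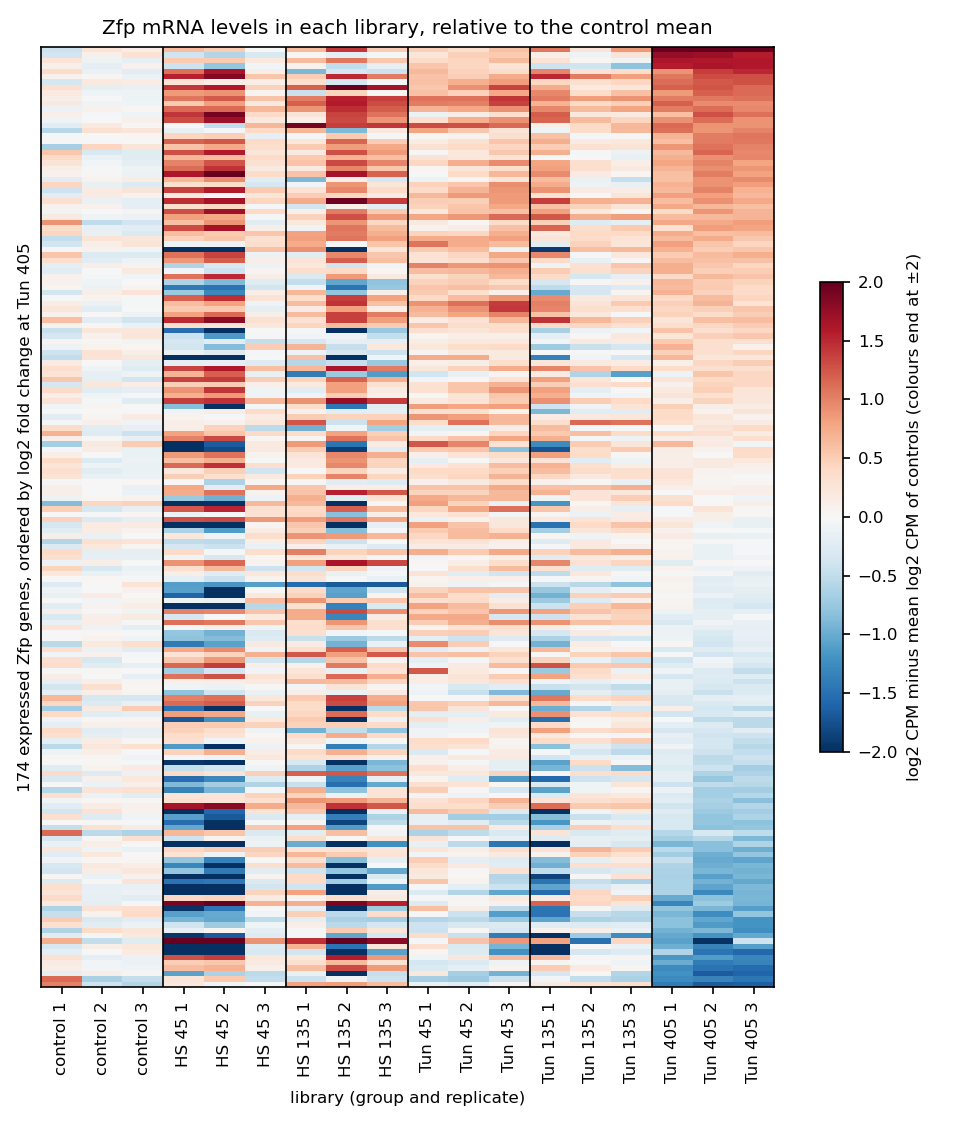
Level of each of the 174 Zfp genes (rows, ordered by log2 fold change at Tun 405) in each library (columns), as log2 CPM minus the mean log2 CPM of the controls, with colours ending at ±2. HS 45 replicates 1 and 2, HS 135 replicate 2 and Tun 135 replicate 1 share a pattern of strong rises and falls that the other replicates of their groups show weakly, whereas the 3 Tun 405 libraries look alike.

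At HS 45, none of the 174 genes passed the test (adjusted p under 0.05, the quasi-likelihood F-test of edgeR, Benjamini-Hochberg over all 12731 genes), and 0% of all genes did in either direction. At an unadjusted p under 0.05 the count was 42 higher and 11 lower, and DESeq2's Wald test called 17 higher and 1 lower. All 3 HS libraries lay above all 3 controls for 38 of the genes (21.8%, against 12.5% of all genes) and below them for 17 (9.77%, against 12.8%). The genes split by base composition: the 91 at 50% GC or more had a median log2 fold change of 0.53 and the 82 below it -0.52. Without HS 45 replicate 3, whose deviation with GC content had the opposite sign to that of the other two, 56 genes were called higher and 47 lower. Genes with values far from control in the 2 remaining libraries included Zfp503, a co-repressor of the NocA family, which had 267, 349 and 116 CPM against 82.4, 63.6 and 70.3 CPM in control. Zfp367 had 74.7, 83.3 and 39.2 CPM against 20, 26.0 and 25 CPM. Both had HS libraries above all controls, with the third replicate the lowest of the 3, and log2 fold changes of 1.76 and 1.47 that did not pass (adjusted p = 0.227 for both, edgeR). No share over all genes is given for the counts at an unadjusted p, from DESeq2 or without HS 45 replicate 3. The split by GC content was also taken over the Zfp genes alone. None of these can be read as particular to the Zfp genes, and the same holds for such counts below.

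At HS 135, 18 of the 174 genes (10.3%) were called higher and 2 (1.15%) lower, while 4.75% of all genes tested were called higher and 2.64% lower. The median log2 fold change was 0.20 for the Zfp genes and -0.07 for the 9907 genes at 1 RPKM or more. All 3 libraries lay above all controls for 58 genes (33.3%, against 18.1% of all genes) and below them for 15 (8.62%, against 19.0%). The calls rested on few libraries: 0 genes were called in either direction without HS 135 replicate 3, without control replicate 2 or without control replicate 3, and 21 were called higher without HS 135 replicate 2. Without HS 135 replicate 1 the count was 31 higher and 7 lower. An exact permutation test of 3 against 3 samples cannot give a two-sided p below 0.10, so single genes were tested only by models fitted across all genes.

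Zfp467, a transcription factor of the fat and bone lineages, rose most at HS 135. It had 11.3, 25.2 and 14.3 CPM against 6.73, 2.95 and 3.48 CPM in control, a log2 fold change of 1.95 (SE 0.436, adjusted p = 0.0389, edgeR). Its values at HS 45 were 17.2, 20 and 7.66 CPM, and in the Tun groups they lay between 1.04 and 7.49 CPM, so that the high values were those of the heat-stressed libraries. Zfp516, which activates brown fat genes, had 108, 220 and 149 CPM against 59.0, 41.6 and 42.6 CPM (log2 fold change 1.74, SE 0.303, adjusted p = 0.0211, edgeR). Zfp503 had 119, 265 and 210 CPM against 82.4, 63.6 and 70.3 CPM (log2 fold change 1.46, SE 0.306, adjusted p = 0.0329, edgeR). The highest of the HS libraries for all 3 genes was replicate 2, and the lowest HS library still exceeded the highest control.

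Zfp623 (chromosome 15, 75771382 to 75779830, mm9) had 48.1, 33.3 and 34.0 CPM at HS 135 against 10.9, 14.7 and 13.0 CPM in control, a log2 fold change of 1.58 (SE 0.250, adjusted p = 0.0199, edgeR). At HS 45 it had 12.8, 9.04 and 20.2 CPM, which overlapped the controls. Zfp521, a cofactor that holds progenitor cells undifferentiated, had 78.9, 81.5 and 72.1 CPM at HS 135 against 44.6, 28.6 and 31.6 CPM (log2 fold change 1.15, SE 0.230, adjusted p = 0.0290, edgeR). In neither gene did HS 135 replicate 2 stand far above the other replicates, as it did for Zfp516. Of the 23 expressed genes on a list of Zfp transcription and chromatin factors, 7 rose at HS 135 (30.4%) and none fell. Of all genes tested, 4.75% were called higher and 2.64% lower. The list was drawn up with results of these data known, and the difference from all genes was not tested. The other 5 besides Zfp516 and Zfp521 were Zfp503, Zfp238, Zfp219, Zfp367 and Zfp161. Zfp219 overlaps other gene models in the annotation, and reads of both could not be told apart if strand was not used. None of the 10 expressed RNA and ribosome factors was called at HS 135 in either direction.

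The genes that fell at HS 135 were Zfp386 and Zfp771. Zfp386 (chromosome 12, 117285935 to 117299062, mm9), which carries a KRAB-A motif, had 1.82, 1.66 and 1.65 CPM against 4.42, 5.25 and 6.38 CPM in control (log2 fold change -1.64, SE 0.269, adjusted p = 0.0199, edgeR). It was already at 2.46, 2.35 and 2.47 CPM at HS 45, below every control, and was 4.94 to 5.63 CPM at Tun 45. With an offset for GC content the fall was -0.97 and no longer passed (adjusted p = 0.0795, edgeR). Zfp771 had 11.7, 18.4 and 14.2 CPM at HS 135 against 37.1, 27.4 and 28.7 CPM (log2 fold change -1.07, SE 0.258, adjusted p = 0.0463, edgeR). Its HS 45 libraries had 49.2, 70.8 and 27.8 CPM, all above those of HS 135.

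At Tun 45, 25 of the 174 genes (14.4%) were called higher and none lower, while 4.01% of all genes tested were called higher and 2.17% lower. For the lower direction, 3 genes had an unadjusted p under 0.05 and DESeq2 called 0. The median log2 fold change was 0.29, and 139 of the 174 genes had a fold change above 0, against a median of -0.04 for the 9907 genes at 1 RPKM or more. All 3 libraries lay above all controls for 65 genes (37.4%, against 17.2% of all genes) and below them for 6 (3.45%, against 16.0%). The shift was similar on both sides of 50% GC, with medians of 0.33 above and 0.23 below, and 40 genes were called higher with an offset for GC content. Leaving out 1 library moved the count from 25 to between 1 (without Tun 45 replicate 2 or control replicate 3) and 58 (without control replicate 1), and counts without Tun 45 replicate 1, Tun 45 replicate 3 and control replicate 2 were 6, 5 and 2.

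Zfp623 also led the rises at Tun 45, with 31.6, 31.0 and 28.1 CPM against 10.9, 14.7 and 13.0 CPM (log2 fold change 1.25, SE 0.160, adjusted p = 0.00857, edgeR). Zfp295, named Zbtb21 in RefSeq, a BTB-domain repressor (chromosome 16, 98168599 to 98183786, mm9), had 53.5, 53.5 and 68.2 CPM against 27.3, 25 and 23.5 CPM (log2 fold change 1.22, SE 0.144, adjusted p = 0.0066, edgeR). Of the 25 genes, it alone was called in every one of the 6 fits that left out a library. Zfp238, now Zbtb18, a transcriptional repressor needed for brain development (chromosome 1, 179374792 to 179380897, mm9), had 50, 49.8 and 63.6 CPM against 28.0, 23.2 and 23.2 CPM (log2 fold change 1.15, SE 0.152, adjusted p = 0.00935, edgeR). Zfp839 had 7.84, 9.05 and 11.1 CPM against 4.67, 3.89 and 4.12 CPM (log2 fold change 1.16, SE 0.185, adjusted p = 0.0158, edgeR). In all 4 genes every Tun 45 library lay above every control.

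At Tun 135, none of the 174 genes was called, and 0.126% of all genes were called higher and 0.00785% lower. At an unadjusted p under 0.05 there were 29 higher and 5 lower, and DESeq2 called 9 higher and 1 lower. The median log2 fold change was 0.16, and 36 genes (20.7%, against 13.7% of all genes) had all 3 libraries above all controls. The nearest to the threshold were Zfp295, with 52.0, 45.2 and 47.1 CPM and a log2 fold change of 0.94, and Zfp703, a co-repressor related to Zfp503, with 66.9, 48.5 and 41.4 CPM against 25.1, 24.1 and 21.6 CPM and a log2 fold change of 1.16 (adjusted p = 0.0802 for both, edgeR). For both, every Tun 135 library lay above every control.

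**Figure D3:**
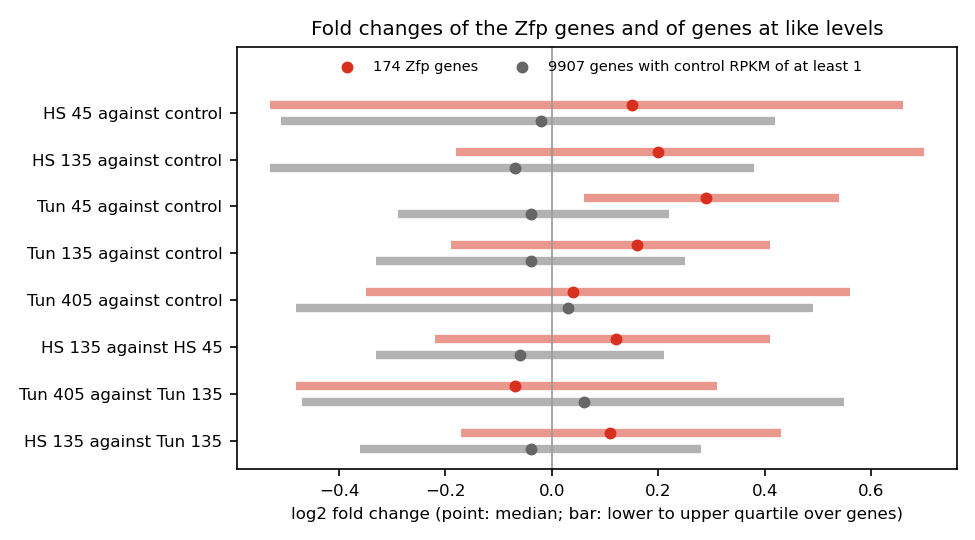
Log2 fold changes (x axis) in the 8 comparisons (y axis), with the median as a point and the lower to upper quartile over genes as a bar. Red shows the 174 Zfp genes and gray the 9907 genes tested with a control RPKM of at least 1; the Zfp median lies to the right in every comparison but that of Tun 405 with Tun 135, and at Tun 405 the medians nearly coincide (0.04 and 0.03).

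At Tun 405, 50 of the 174 genes (28.7%) were called higher and 35 (20.1%) lower, while 23.3% of all genes tested were called higher and 23.5% lower. The median log2 fold change was 0.04, and all 3 libraries lay above all controls for 58 genes (33.3%, against 29.2% of all genes) and below them for 46 (26.4%, against 29.5%), so that the Zfp genes changed in both directions at shares near those of all genes. Of the 85 calls, 52 held in every one of the 6 fits that left out a library, 30 of them higher and 22 lower. Without Tun 405 replicate 2 there were 32 higher and 23 lower calls.

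The 4 genes with the largest rises at Tun 405 rose mainly between 135 and 405 min. Zfp57, a KRAB protein that keeps DNA methylation at imprinted regions (chromosome 17, 37139487 to 37147552, mm9), had 123, 137 and 145 CPM against 21.1, 34.4 and 31.6 CPM in control, a log2 fold change of 2.24 (SE 0.192, adjusted p = 8.29e-05, edgeR). It had 39.4, 36.4 and 42.6 CPM at Tun 45, already above every control. It had 59.0, 34.0 and 51.4 CPM at Tun 135, and between 28.6 and 76.1 CPM under HS. Zfp330, a nucleolar protein (chromosome 8, 85287519 to 85298025, mm9), had 110, 108 and 96.4 CPM at Tun 405 against 24.9, 34.8 and 39.8 CPM (log2 fold change 1.68, SE 0.178, adjusted p = 0.000219, edgeR). In the other 4 stressed groups it lay between 21.7 and 46.6 CPM, close to the controls, so that the 3 Tun 405 libraries stood alone.

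Zfp324 and Zfp566, both with a KRAB-A motif and both on chromosome 7, also peaked at Tun 405. Zfp324 (13551213 to 13559171, mm9) had 51.4, 51.0 and 51.1 CPM at Tun 405 against 20.1, 15.6 and 15 CPM (log2 fold change 1.62, SE 0.149, adjusted p = 0.000115, edgeR). Zfp566 (30862356 to 30875529, mm9), which has 9 of the other expressed Zfp genes within 500 kb, had 12.9, 13.4 and 13.1 CPM against 4.67, 3.80 and 4.60 CPM (log2 fold change 1.61, SE 0.151, adjusted p = 0.000122, edgeR). The 3 libraries of Tun 405 agreed closely for both genes. At Tun 45 both already lay above every control. Zfp324 had 21.9, 22.5 and 26.1 CPM there and Zfp566 6.37, 5.85 and 5.23 CPM. At Tun 135, Zfp324 (20.4, 17.3 and 15.8 CPM) overlapped the controls and Zfp566 (3.27, 3.28 and 2.49 CPM) lay below them. The main step came between 135 and 405 min. Compared with Tun 135, whose libraries chose no members, the log2 fold changes were 2.10 for Zfp566, 1.56 for Zfp330, 1.5 for Zfp324 and 1.47 for Zfp57. Each was called in all 6 fits that left out a library.

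The 4 largest falls at Tun 405 were those of Zfp462, Zfp281, Zfp825 and Zfp217. Zfp462, a chromatin regulator of embryonic development with 33 finger matches (chromosome 4, 54960817 to 55096435, mm9), had 35.9, 29.8 and 30.4 CPM against 189, 70.5 and 62.9 CPM (log2 fold change -1.73, SE 0.398, adjusted p = 0.0083, edgeR). Zfp281, a regulator of pluripotency genes, had 14.6, 14 and 13.0 CPM against 77.4, 22.4 and 25.2 CPM (log2 fold change -1.57, SE 0.444, adjusted p = 0.0199, edgeR). Control replicate 1 was far above the other controls for both, and without it the log2 fold changes were -1.03 and -0.75 and were still called. The Tun 405 libraries lay below all 15 other libraries for both genes.

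Zfp217, an oncoprotein that works with co-repressors, had 12.9, 11.2 and 10.7 CPM at Tun 405 against 34.1, 29.8 and 29.6 CPM (log2 fold change -1.40, SE 0.138, adjusted p = 0.000155, edgeR). At HS 135 it had 47.2, 77.6 and 56.4 CPM, above every control. Zfp825, with a KRAB-A motif and the lowest transcript GC content of the 174 (37.6%), had 1.36, 0.988 and 1.03 CPM at Tun 405 against 2.74, 3.43 and 3.27 CPM (log2 fold change -1.46, SE 0.204, adjusted p = 0.000812, edgeR). Zfp618, a partner of the methylation reader Uhrf2, had 7.28, 7.5 and 6.59 CPM against 20.1, 14.4 and 15.1 CPM (log2 fold change -1.19, SE 0.173, adjusted p = 0.000964, edgeR). None of the 3 genes had a Tun 405 library within the range of the controls.

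**Figure D4:**
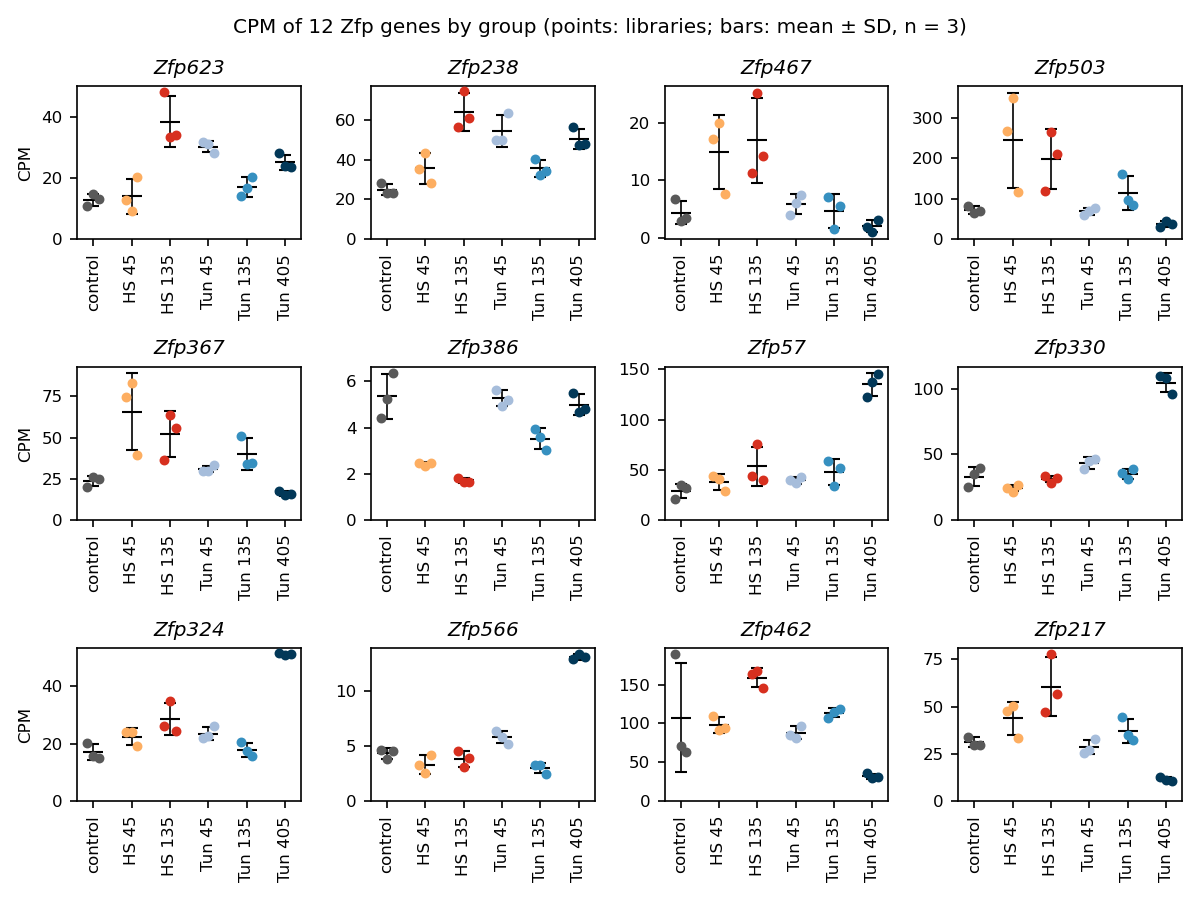
CPM (y axis, linear, from 0) of 12 Zfp genes in the 6 groups (x axis), with a point for each library and bars for the mean ± SD (n = 3). Zfp57, Zfp330, Zfp324 and Zfp566 are highest at Tun 405, although Zfp57 and Zfp324 also lie above every control at HS 135. Zfp462 and Zfp217 are lowest at Tun 405, Zfp467 is highest in HS libraries, and the spread is widest in the HS groups and, for Zfp462, in control.

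Between Tun 135 and Tun 405, which do not use the libraries that chose the genes, 21 of the 174 genes (12.1%) were called higher and 34 (19.5%) lower, while 21.4% of all genes tested were called higher and 22.4% lower. The median log2 fold change was -0.07 for the Zfp genes and 0.06 for the 9907 genes at 1 RPKM or more. Only 31 genes (17.8%) had all Tun 405 libraries above all Tun 135 libraries, against 29.8% of all genes. Of the 55 calls, 30 held in all 6 fits that left out a library, and without Tun 135 replicate 1 the counts rose to 46 higher and 59 lower. The largest falls were those of Zfp462 (-1.85, SE 0.134, adjusted p = 8.21e-05, edgeR), Zfp217 (-1.70), Zfp503 (-1.66) and Zfp618 (-1.49), all called in every one of the 6 fits. Zfp503 had 28.6, 43.7 and 37.7 CPM at Tun 405 against 162, 95.6 and 84.5 CPM at Tun 135, and it lay below the controls as well.

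Grouped by role, 4 of the 10 RNA and ribosome factors rose at Tun 405 and 2 fell (40% and 20%, beside 23.3% and 23.5% of all genes), with a median log2 fold change of 0.48. Besides Zfp330, the rises were those of Zfp622, a maturation factor of the large ribosomal subunit (60.0, 76.4 and 61.9 CPM against 28.6, 42.8 and 45.6 CPM, log2 fold change 0.78), Zfp593, another factor of large-subunit assembly (34.1, 42.4 and 43.6 CPM against 19.4, 23.8 and 25.1 CPM, 0.84), and Zfp346, which binds double-stranded RNA (36.0, 32.4 and 31.1 CPM against 24.2, 21.5 and 22.7 CPM, 0.56). The falls were those of Zfp106 (log2 fold change -0.59) and Zfp207 (-0.56). Without control replicate 1 the latter was -0.37. Zfp207 is on this list although it is described above as a spindle and kinetochore protein. Zfp598, which was not called against control, had 378, 373 and 392 CPM at Tun 405. These values lay within the range of its controls. They were below control replicate 1 (409 CPM) and above the other controls, the lowest of which had 154 CPM. What set the controls apart was not tested. Zfp598 was called higher against Tun 135 (307, 183 and 195 CPM, log2 fold change 0.72, adjusted p = 0.0258, edgeR), a call that held in 1 of 6 fits that left out a library. Zfp259, or Zpr1, which helps translation elongation factor eEF1A fold, rose between Tun 135 and Tun 405 by 0.42 on the log2 scale, from 52.2, 52.3 and 53.1 to 74.4, 67.1 and 72.3 CPM, also called in 1 of 6 such fits. None of the 10 fell in that comparison, beside 22.4% of all genes.

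Of the 23 transcription and chromatin factors, 11 fell at Tun 405 (47.8%, beside 23.5% of all genes) and 5 rose (21.7%, beside 23.3%), with a median log2 fold change of -0.37. From Tun 135 to Tun 405, 12 of the 23 fell and 2 rose, beside 22.4% and 21.4% of all genes. The falls at Tun 405 against control included Zfp395 (24.8, 28.2 and 26.5 CPM against 65.2, 44.5 and 42.9 CPM, log2 fold change -0.92, adjusted p = 0.00438, edgeR). The rises were those of Zfp703 (49.1, 58.3 and 57.7 CPM against 25.1, 24.1 and 21.6 CPM, log2 fold change 1.24), Zfp516, Zfp238, Zfp219 and Zfp384. Zfp703 and Zfp503, which belong to the same co-repressor family and in which no C2H2 match was found, thus moved in opposite directions at Tun 405. These 2 lists were drawn up with results of these data known, and the difference between them was not tested.

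Of the 4 expressed KRAB repressors listed for imprints or retroelements, Zfp57 rose, while Zfp445, which protects imprints together with it, had 12.4, 10.2 and 9.99 CPM against 14.8, 21.2 and 22.6 CPM (log2 fold change -0.83, adjusted p = 0.00774, edgeR). Zfp809, which silences murine leukemia viruses, had 1.62, 1.73 and 1.37 CPM against 2.03, 2.59 and 3.18 CPM (log2 fold change -0.70, adjusted p = 0.0281, edgeR), a call that held in 1 of 6 fits that left out a library. The fourth was not called. The machinery that KRAB proteins recruit was measured through 17 co-repressor genes, of which 7 fell at Tun 405 (41.2%, beside 23.5% of all genes) and none rose (beside 23.3%), with a median log2 fold change of -0.55. They included Uhrf1 (-2.26), Dnmt1 (-1.54), Cbx5, which encodes HP1α (-1.45), and the remodelers Chd4 (-1.37) and Chd3 (-1). Trim28 itself, at 186 RPKM in control, did not pass (-0.35, adjusted p = 0.0757, edgeR). None of the 17 was called at HS 135 or Tun 45, where 2 and 0 had an unadjusted p under 0.05 in the upward direction and 2 and 1 in the downward direction.

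Grouped by structure, the 67 genes with 10 or more fingers had a median log2 fold change of -0.22 at Tun 405, with 8 called higher (11.9%, beside 23.3% of all genes) and 16 lower (23.9%, beside 23.5%). The 62 genes with 5 to 9 fingers had a median of 0.28 (23 higher, 10 lower), the 38 with 1 to 4 fingers 0.24 (15 higher, 8 lower) and the 6 with none 0.54 (4 higher, 1 lower). At HS 135 the medians of the same groups were 0.20, 0.29, 0.18 and 0.60, at Tun 45 they were 0.26, 0.39, 0.23 and 0.51, and from Tun 135 to Tun 405 they were -0.27, 0.14, 0.10 and 0.08. The differences between finger classes were not tested. The 37 genes with a KRAB-A motif had 8 called higher and 11 lower at Tun 405 (median -0.04). The 136 without a match, Zfp445 among them, had 42 and 24 (median 0.12). Transcript GC content moved with these counts: 33 of the 91 genes at 50% GC or more were called higher and 9 lower at Tun 405, against 17 and 26 of the 82 below 50%. The part of GC content in these differences was not tested, and with an offset for it 47 genes were called higher and 42 lower in all. Genes with another of the 174 within 500 kb had 22 of 87 called higher and 14 lower, and those without 28 and 21 of 87.

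**Figure D5:**
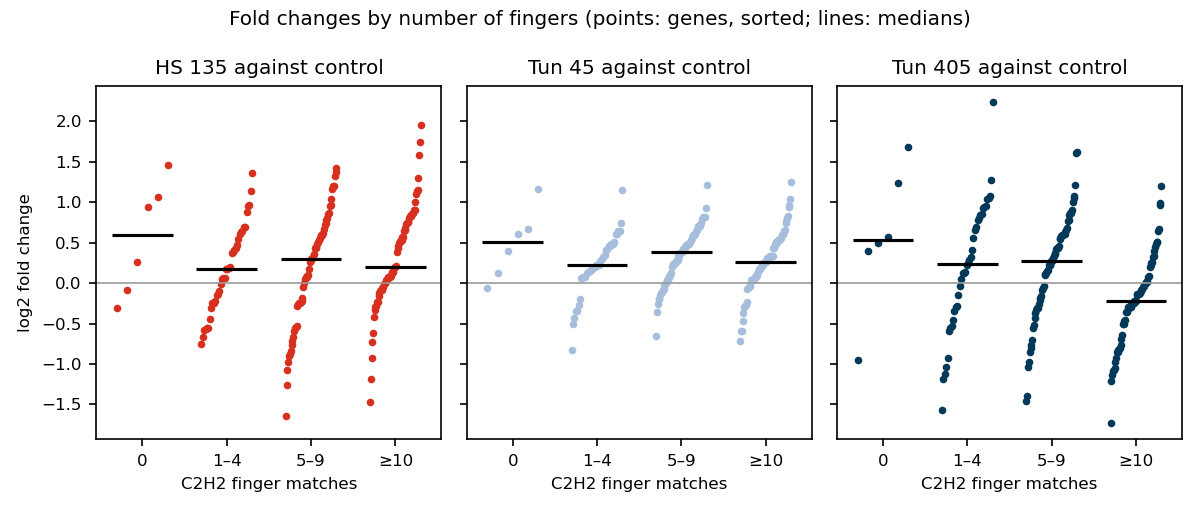
Log2 fold change (y axis) of each Zfp gene against control at HS 135, Tun 45 and Tun 405, by number of C2H2 finger matches in its translated gene model (x axis), with points sorted within a class and a line at the median. The class with 10 or more fingers (67 genes) has its median at -0.22 at Tun 405 and above 0 in the other 2 comparisons.

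Over the 5 comparisons with control, which share their control libraries, 74 of the 174 genes were called in none, 66 were called higher in at least 1 and 37 lower in at least 1. The same counts over all genes are not given here. At Tun 405 alone, 23.3% of all genes were called higher and 23.5% lower, so these counts are not read as particular to the Zfp genes. The Zfp genes called higher in 3 comparisons (HS 135, Tun 45 and Tun 405) were Zfp623, Zfp295, Zfp238, Zfp516, Zfp213 and Zfp691, the last 2 of which are named because of their values. Zfp691 had 10.4, 15.6 and 13.0 CPM at HS 135, 9, 9.61 and 10.6 CPM at Tun 45 and 11.4, 12.2 and 10.9 CPM at Tun 405, against 5.17, 5.95 and 5.79 CPM in control, and every stressed library of any group lay above every control. Its log2 fold changes were 1.20, 0.80 and 1.05. The genes called in opposite directions were Zfp503, Zfp367 and Zfp161 (now Zbtb14), all higher at HS 135 and lower at Tun 405. Zfp367 had 36.7, 64.0 and 55.9 CPM at HS 135 and 17.9, 14.9 and 15.7 CPM at Tun 405, against 20, 26.0 and 25 CPM in control. Zfp161 had 40.5, 39.6 and 35.1 CPM at HS 135 and 18.7, 14.2 and 12.3 CPM at Tun 405, against 21.0, 22.6 and 22.2 CPM. In neither gene did the groups overlap the controls, and the log2 fold changes were 1.14 and -0.53 for Zfp367 and 0.81 and -0.52 for Zfp161. No gene was called higher at Tun 45 and lower at Tun 405.

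Promoters of some of the genes named above are shown so that their letters can be read beside the values. RefSeq promoters on GRCm38.p6, of 250 bases before and 50 bases after a start site, were matched to 140 of the 174 genes (132 by symbol and 8 by synonym), which had 184 start sites. The motifs searched, on both strands, were GAANNTTC and TTCNNGAA, the inverted repeats in the binding site of the heat shock factor Hsf1, TGATGNAA, found in sites of Atf4 with C/EBP partners, TGACGTGG, found in sites of Atf6 and Xbp1, TGACGTCA, the cAMP response element, and CCAAT. The first pair and TGACGTCA read the same on both strands. Of the 184 promoters, 8.15%, 4.89%, 1.09%, 1.09%, 3.26% and 37.5% held each motif in this order, against 7.86%, 8.52%, 3.97%, 0.676%, 1.79% and 37.4% of all 32851 promoters. Member promoters had a median of 18 CpG pairs, against 7 in all. Among the 13 genes with a promoter that were called higher at HS 135, 1 held GAANNTTC and none held TTCNNGAA, and none of the 39 called higher at Tun 405 held TGATGNAA. A match describes letters and is not evidence of binding.

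Sequences of Zfp691 and Zfp295, called higher in 3 comparisons, and of Zfp367, called in opposite directions, follow with capitals marking matches to any of the motifs. The promoter of Zfp691 is chr4:119174146-119174445 on the minus strand and holds GAANNTTC at bases 170 to 177, counted from 1 at its 5′ end. It was the only one of the 13 promoter-matched genes called higher at HS 135 with that motif. Zfp691 has a second start site with no match. That of Zfp295 is chr16:97962573-97962872, minus strand, with TGACGTCA at bases 251 to 258, at the start site. Zfp367 has start sites at chr13:64153150-64153449 and chr13:64152324-64152623, both minus strand, the first with TGACGTGG at bases 88 to 95, next to and sharing a base with a CCAAT match, and the second with TGACGTCA at bases 146 to 153.
Zfp691: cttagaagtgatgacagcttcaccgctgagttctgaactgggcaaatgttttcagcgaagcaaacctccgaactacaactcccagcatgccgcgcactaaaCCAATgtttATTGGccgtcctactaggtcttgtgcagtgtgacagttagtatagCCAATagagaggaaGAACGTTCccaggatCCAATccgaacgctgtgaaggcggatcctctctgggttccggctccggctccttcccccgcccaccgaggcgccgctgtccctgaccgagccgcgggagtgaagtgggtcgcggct
Zfp295: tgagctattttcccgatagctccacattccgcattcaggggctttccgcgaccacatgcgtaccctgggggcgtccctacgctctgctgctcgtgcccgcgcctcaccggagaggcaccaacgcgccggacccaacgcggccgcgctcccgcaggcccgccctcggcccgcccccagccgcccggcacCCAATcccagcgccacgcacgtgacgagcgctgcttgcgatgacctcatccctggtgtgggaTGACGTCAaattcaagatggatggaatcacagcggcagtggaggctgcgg
Zfp367, first start: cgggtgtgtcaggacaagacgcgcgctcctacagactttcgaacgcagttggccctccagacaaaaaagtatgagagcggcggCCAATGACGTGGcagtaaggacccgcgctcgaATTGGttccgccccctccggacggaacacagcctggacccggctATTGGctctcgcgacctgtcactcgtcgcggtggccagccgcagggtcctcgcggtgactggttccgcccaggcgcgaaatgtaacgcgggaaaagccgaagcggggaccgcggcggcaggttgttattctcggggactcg
Zfp367, second start: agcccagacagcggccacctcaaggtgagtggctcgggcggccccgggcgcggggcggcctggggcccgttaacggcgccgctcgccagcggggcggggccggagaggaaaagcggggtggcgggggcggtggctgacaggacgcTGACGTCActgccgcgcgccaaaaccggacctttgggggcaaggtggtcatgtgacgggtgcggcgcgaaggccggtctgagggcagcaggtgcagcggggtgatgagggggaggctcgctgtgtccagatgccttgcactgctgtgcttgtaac

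For comparison, the promoters of 3 of the 4 genes with the largest rises at Tun 405 are printed in the same way, and that of Zfp57 is not shown. They are those of Zfp324 (chr7:12965588-12965887, plus strand), Zfp566 (chr7:30090461-30090760, minus strand) and Zfp330 (chr8:82774096-82774395, minus strand). Only CCAAT, in Zfp324, was matched, and the 3 sequences held 14, 14 and 15 CpG pairs.
Zfp324: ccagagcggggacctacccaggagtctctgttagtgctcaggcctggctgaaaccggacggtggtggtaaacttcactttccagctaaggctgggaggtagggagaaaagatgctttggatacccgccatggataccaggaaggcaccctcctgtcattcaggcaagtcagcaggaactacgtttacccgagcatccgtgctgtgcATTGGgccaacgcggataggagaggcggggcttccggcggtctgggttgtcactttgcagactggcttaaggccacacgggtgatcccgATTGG
Zfp566: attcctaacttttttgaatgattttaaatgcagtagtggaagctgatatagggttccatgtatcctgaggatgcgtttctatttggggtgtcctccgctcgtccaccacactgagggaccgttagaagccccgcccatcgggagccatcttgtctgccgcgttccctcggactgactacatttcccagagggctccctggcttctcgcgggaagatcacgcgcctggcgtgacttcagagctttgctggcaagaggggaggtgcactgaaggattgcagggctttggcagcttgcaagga
Zfp330: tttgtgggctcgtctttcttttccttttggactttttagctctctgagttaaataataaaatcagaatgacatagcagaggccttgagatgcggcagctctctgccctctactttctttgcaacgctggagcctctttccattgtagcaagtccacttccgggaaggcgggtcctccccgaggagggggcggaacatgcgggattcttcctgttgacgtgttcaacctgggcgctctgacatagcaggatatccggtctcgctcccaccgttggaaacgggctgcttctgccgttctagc

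The remaining comparisons without controls were those of HS 135 with HS 45 and with Tun 135. From HS 45 to HS 135, no Zfp gene was called, and 0% of all genes were called in either direction. At an unadjusted p under 0.05 there were 7 higher and 3 lower, DESeq2 called 2 higher and 3 lower, and 18 genes (10.3%, against 9.43% of all genes) had all HS 135 libraries above all HS 45 libraries. Between HS 135 and Tun 135, 1 gene was called lower under HS and none higher, while 1.30% of all genes were called higher and 0.817% lower. At an unadjusted p under 0.05 there were 23 higher and 7 lower, and DESeq2 called 12 higher and 4 lower. The gene was Zfp687, which works with Zfp592 in a complex that reads transcribed chromatin. It had 32.6, 44.6 and 36.2 CPM at HS 135 and 111, 81.7 and 84.8 CPM at Tun 135, a log2 fold change of -1.31 (SE 0.211, adjusted p = 0.0395, edgeR), with controls at 81.5, 54.1 and 56.2 CPM. The call held in 1 of the 6 fits that left out a library, that without HS 135 replicate 2.

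Families of like proteins, taken at the same RPKM minimum, give a scale for these counts. They were split by the names in these data, so Zfp295, Zfp238 and Zfp161, which now have Zbtb names, counted as Zfp genes. At Tun 45, 2 of 22 Zbtb genes, 2 of 10 Zscan and Zkscan genes and 7 of 11 Klf genes were called higher and none lower, with median log2 fold changes of 0.22, 0.70 and 1 beside 0.29 for the Zfp genes. At HS 135, 3, 2 and 4 of these genes were called higher and 1, 0 and 0 lower, with medians of 0.35, 0.60 and 0.70 beside 0.20. At Tun 405 the medians were 0.05, 0.43 and 0.38 beside 0.04. Of all genes tested, 4.01% were called higher and 2.17% lower at Tun 45, and 4.75% and 2.64% at HS 135. The differences between families were not tested.

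Counts of some of the 174 genes carry an uncertainty of their own. In 8 of them, over 5% of the 50-base stretches of the transcript occur in another gene's transcripts, and 5 overlap another gene model. None of the genes named here was among the first 8, and Zfp219 and no other was among the latter. Positions of 7 genes, Zfp467 and Zfp217 among them, differ between the processed files, so none is given for these.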

How the data were processed

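Poly(A) RNA of NIH3T3 cells was sequenced on Illumina HiSeq instruments, with 3 libraries for each of 6 groups. The study describes an in-house and a NuGEN library route, and which library followed which route is not given in the sources used here. Reads were assigned to RefSeq genes on mm9 on the DNAnexus platform. The aligner, the counter, the use of strand and the treatment of reads with several matches are not given in the sources used here. The authors deposited, for each gene, an estimated count of reads (not whole in 17.7 to 23.2% of low values), the RPKM, a Z-score and an RMS-normalized RPKM signal. The deposited score and signal were not used. The deposited RPKM chose the 174 genes, and the deposited estimated counts, rounded to whole numbers, gave all tests. Values of the 18 libraries were joined by gene name, and no column was left unmapped.

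Genes with at least 1 read in all 18 libraries (12731) were tested by edgeR (4.0.16 in R 4.3.3) with TMM scaling and the quasi-likelihood test, fitted on the 6 libraries of each comparison, with Benjamini-Hochberg adjustment over all genes tested and a threshold of 0.05. CPM values were scaled by TMM over all 18 libraries, whereas fold changes came from each 6-library fit. DESeq2 (1.42.0) was run as an alternative, as were other scaling, no filter on low counts, 1 fit of all groups, an offset for GC content (lowess, span 0.3), a replicate block, the block with that offset, a minimum absolute log2 fold change of 1, other choices of members, and leaving out each library. The test was tested on simulated data with known changes: for HS 135 against control, it recovered 4% of genes changed by 1 on the log2 scale and 75% of those changed by 2, and for Tun 405 against control 65% and 94%. Simulated counts were drawn for each gene on its own, without the deviations along GC content that genes of a library shared. These shares may therefore not hold for the real libraries. Depth was 33415592 to 66478268 reads per library, so that 3 reads made up 0.0451 to 0.0898 CPM (this reflects counting error alone). Libraries of a group differed by more than sampling noise (chi-square per degree of freedom 15.04 to 821.1), so each was counted as a sample. The labels do not say that libraries of a group came from separate cultures, and p-values then measure only the spread between these libraries, which may be technical.

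No label says whether same-numbered libraries were handled together. As a working rule, replicate numbers were taken to pair samples where same-numbered libraries deviated together in all 3 pairs. Such correlations do not establish a pairing, since what the libraries shared was not tested. This held for Tun 135 against control (correlations across genes 0.287, 0.236 and 0.194), where the fit with the replicate block also called 0 genes higher and 0 lower, and for no other comparison.

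The text names the 5 genes highest in control, up to 4 rises and 4 falls per comparison (called, groups not overlapping, at least 50 reads on average in the higher group), 3 genes on each side of the RPKM minimum, and up to 12 genes of the lists of known roles. The members and lists were chosen with earlier results of these data known. Genes matched the annotation by symbol (172) or synonym (1), and 1 did not match. Fingers and KRAB-A motifs were found in translations of GENCODE vM1 transcripts. Promoters were RefSeq sequences on GRCm38.p6, and gene positions are those of the mm9 files. Joins and counts used Python 3.11.15 with pandas 2.3.3 and numpy 2.4.6.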

Additional observations from a re-analysis of the deposited data

Results flagged for a closer look

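Some genes had effects of the same stress that differed between time points, or effects of the 2 stresses at 135 min that differed, by a direct test (edgeR's quasi-likelihood test, adjusted over all genes). Between Tun 405 and Tun 135 the log2 differences were 2.10 for Zfp566, 1.56 for Zfp330, 1.5 for Zfp324 and 1.47 for Zfp57. They were -1.85 for Zfp462, -1.70 for Zfp217, -1.66 for Zfp503 and -1.49 for Zfp618. All 8 were called in every one of the 6 fits that left out a library. Between HS 135 and Tun 135 the log2 difference of Zfp687 was -1.31, and its call held only without HS 135 replicate 2. Groups of 3 libraries were too small to look for single outlying samples in this way.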

How the results depend on the processing

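Results of named genes were scored as the same or weaker in the alternative runs. DESeq2's Wald test left 79 the same and 0 weaker, and the GC offset 75 and 4. The replicate block left 45 the same and 34 weaker, and 1 fit of all 6 groups 55 and 24. Over the fits that left out 1 library, 328 were the same and 146 weaker. No log2 fold change of a named gene changed sign in any alternative run. The median of the 174 genes, which has no test, did so at HS 45 (0.15) when all tested Zfp genes were taken (-0.11), and at Tun 405 (0.04) with the GC offset (-0.03), the replicate block with that offset (-0.02), without Tun 405 replicate 1 (-0.04) and with all tested Zfp genes (-0.04). The cause of these changes and of those below was not tested, other than that fewer libraries were fitted when 1 was left out. Counts are of the 174 genes called, as higher and lower. No share over all genes is given beside the counts of these runs. DESeq2's Wald test gave 17 and 1 at HS 45, 31 and 6 at HS 135, 43 higher at Tun 45, 9 and 1 at Tun 135, 2 and 3 for HS 135 against HS 45, and 12 and 4 for HS 135 against Tun 135. One fit of all 6 groups gave 30 and 4 at HS 45, 44 and 9 at HS 135, 4 higher at Tun 135, 31 and 17 at Tun 405, 6 and 3 for HS 135 against HS 45, and 18 and 7 for HS 135 against Tun 135. The GC offset gave 35 and 7 at HS 135, 40 higher at Tun 45, 4 higher at Tun 135, 32 higher for Tun 405 against Tun 135, and 13 and 4 for HS 135 against Tun 135. A minimum absolute log2 fold change of 1 left 5 higher at Tun 45, 13 and 12 at Tun 405, and 4 and 12 for Tun 405 against Tun 135. For HS 135 against Tun 135, members chosen by the mean of all 18 libraries gave 1 higher and all tested Zfp genes 2.

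The replicate block gave 0 and 0 at HS 135, 0 higher at Tun 45, 9 and 21 for Tun 405 against Tun 135, and 0 lower for HS 135 against Tun 135. The replicate block with the GC offset gave 9 higher at HS 135, 9 higher at Tun 45 and 0 lower for HS 135 against Tun 135. In these comparisons same-numbered libraries shared only a number. Where the numbers paired libraries, at Tun 135, the replicate block changed no call.

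Leaving out 1 library gave 0 to 56 higher and 0 to 47 lower at HS 45, 0 to 31 and 0 to 7 at HS 135, 1 to 58 higher and 0 lower at Tun 45, 0 to 1 higher at Tun 135, 32 to 67 and 23 to 47 at Tun 405, 9 to 46 and 22 to 59 for Tun 405 against Tun 135, and 0 to 1 in both directions for HS 135 against Tun 135. Of the 20 calls at HS 135, 0 held in all 6 such fits, and of the 25 at Tun 45, 1 did. Zfp335, on the list of transcription and chromatin factors, moved from -0.54 to -0.33 for Tun 405 against Tun 135 without Tun 135 replicate 1. The median of the 174 genes ranged over all alternatives from -0.11 to 0.22 at HS 45, 0.19 to 0.35 at HS 135, 0.24 to 0.33 at Tun 45, 0.09 to 0.21 at Tun 135 and -0.04 to 0.14 at Tun 405.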
